A study of Mus musculus with 9 samples.

Results

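The comparison described here is that of chemically induced extraembryonic endoderm-like (ciXEN) cells at passage 5 with mouse embryonic fibroblasts (MEFs), the cell type they were made from. It uses 6 of the 9 RNA-seq libraries of the study: 3 of MEFs at passage 3, and 1 each of the ciXEN lines 1-1, 2-1 and 3-3 at passage 5. The other 3 libraries are the same lines at passage 30, at which 8.69% of tested genes differed from passage 5 and which entered the filter and the fit and are otherwise given only where a value differed. All cells carry the label CF-1 for the mouse strain, and no group was genetically modified. MEFs grew in high-glucose DMEM with serum. The ciXEN cells arose from colonies of MEFs that were lifted from the dish by hand, and were kept on Matrigel in KnockOut DMEM with serum, serum replacement, basic fibroblast growth factor (bFGF) and 7 compounds, VPA, CHIR99021, RepSox, Parnate, forskolin, AM580 and EPZ004777. Every ciXEN library was grown in this medium and no MEF library was, so that cell type and medium cannot be told apart below.

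XEN cells are cultured counterparts of the primitive endoderm, the epithelium that forms on the inner cell mass of the blastocyst and later gives the parietal and visceral endoderm of the yolk sac. Their identity rests on transcription factors of the GATA, SOX and FOXA families, and parietal endoderm is known for secreting a thick basement membrane of laminin and type IV collagen. Fibroblasts are mesenchymal cells that make interstitial collagens and hold contractile actin bundles, and a conversion from one to the other therefore crosses from mesenchyme to epithelium.

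Values are FPKM, fragments scaled to transcript length and to all mapped fragments, as the authors deposited them for each transcript, summed here over the listed transcripts of a gene. Library sums of FPKM ran from 315395 to 341579, with 10898 to 11130 genes at 1 FPKM or more, and the depth behind them is unknown. Across tested genes, log2(FPKM + 1) had a Pearson correlation of 0.976 to 0.984 between MEF libraries, 0.972 to 0.979 between passage 5 lines and 0.646 to 0.659 between an MEF library and a line. These correlations run across genes, which are not independent replicates. Nothing in the labels says whether the 3 MEF libraries came from separate embryos or cultures, so that the spread between them may be technical. Each p-value of the main fit rests on the spread within groups, pooled over all 9 libraries, and not on the MEF libraries alone. The later-passage libraries thus add to this pooled spread, although they lie outside the comparison. In limma the spread of each gene is also drawn towards a trend across genes. Markers of both cell types followed the labels. Gata4, Sox17, Sox7 and Lama1 lay above 90 FPKM in each line and below 2 FPKM in each MEF library, and Col1a1, Col1a2 and Prrx1 showed the opposite order.

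Of 12443 genes tested with limma, 5067 were higher and 3206 lower in ciXEN cells at an adjusted p under 0.05, which is 40.7% and 25.8% of the tested genes, or 66.5% together. Genes that pass this test are said below to rise or fall, and shares of a gene list should be read against these percentages. For 9199 genes, 73.9%, the 3 passage 5 libraries and the 3 MEF libraries did not overlap. The median log2 fold change over all tested genes was 0.22. Large changes were more often falls: 973 genes fell and 776 rose by at least 4-fold, 248 against 141 by at least 16-fold, and 57 against 26 by at least 64-fold. The median change of a risen gene was 0.91 and that of a fallen gene −1.33. Fold changes are on the log2(FPKM + 1) scale, are followed by ± their standard error from limma, with n = 3 libraries a group, which understates the change of genes with low FPKM. All 3 MEF libraries were listed at 0 for 129 of the risen genes, and all 3 passage 5 libraries for 188 of the fallen ones. When values were set to equal medians the median log2 fold change of all genes moved to 0.10, and 54.8% of calls were rises against 61.2% as deposited.

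**Figure D1:**
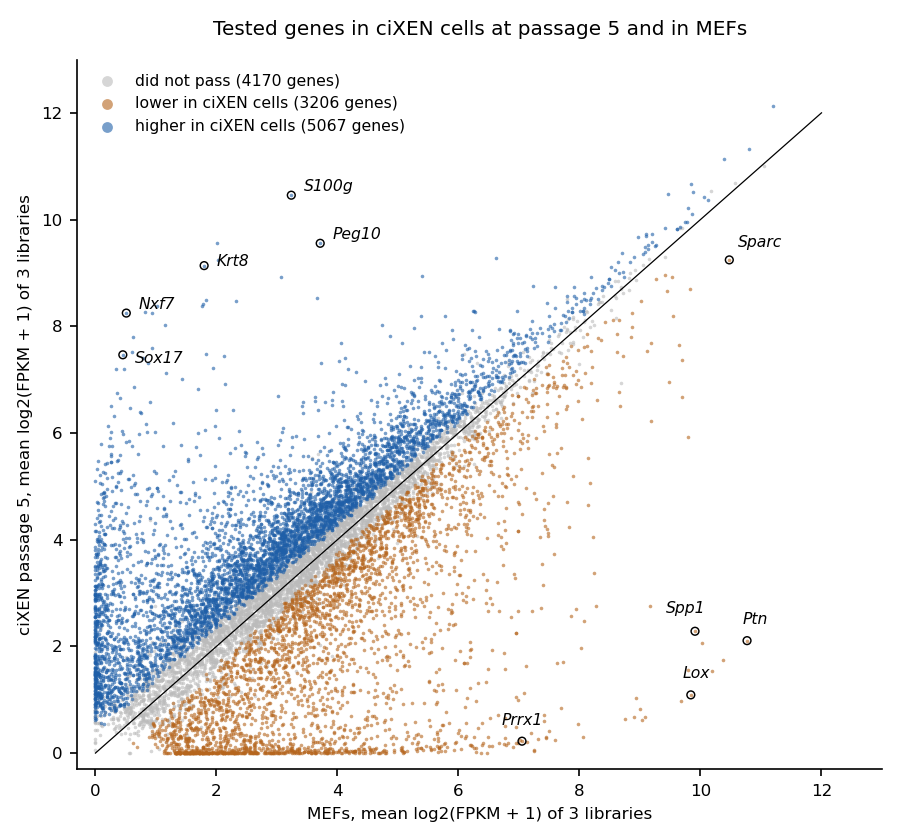
Mean log2(FPKM + 1) of the 3 passage 5 ciXEN libraries (vertical) against that of the 3 MEF libraries (horizontal). Each point is 1 of the 12443 tested genes, in blue for the 5067 that rose, in brown for the 3206 that fell and in grey for the rest, and the line marks equal values. Genes that fell reach further from the line than those that rose, with Lox, Ptn and Spp1 near 10 in MEFs and under 3 in ciXEN cells.

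The gene with the largest rise was Nxf7, a member of the family of nuclear RNA export factors (ENSMUSG00000031410, chromosome X from 135579555 to 135598777 on GRCm38, minus strand). Its FPKM was 0.429, 0 and 1.02 in MEF libraries 1, 2 and 3, and 326, 313 and 272 in lines 1-1, 2-1 and 3-3 (log2 fold change 7.74 ± 0.21, adjusted p = 5.6e-09). It was followed by the homeobox gene Rhox5, the sialomucin Podxl, the epithelial adhesion molecule Epcam and the keratins Krt8 and Krt18. Krt8 was at 6.38, 0.0993 and 4.16 FPKM in MEFs and at 662, 503 and 532 in the lines. S100g, a calcium-binding protein, reached the highest level of the 15 largest rises, 1286, 1455 and 1480 FPKM, against 19.7, 0.512 and 25.8 in MEFs. The others were Cyp26a1, which degrades retinoic acid, the carbonic anhydrase Car4, Sox17, L1td1, Lama1, Igsf1, Stra6 and Bex1. On the X chromosome lie 5 of the 15 genes, Nxf7, Rhox5, S100g, Igsf1 and Bex1, and 439 of all 12443 tested genes. The median log2 fold change of those 439 genes was 0.04, 0.13 and 0.04 in lines 1-1, 2-1 and 3-3. For each of the 15 the lowest line lay above the highest MEF library.

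The same 15 genes were not equally low in the MEF libraries. Relative to the mean of the passage 5 lines, their median level was 0.479% in MEF library 1, 0.0176% in library 2 and 0.607% in library 3. In MEF library 2, 7 of the 15 were listed at 0, and in libraries 1 and 3 none was. Genes far above the MEF level in ciXEN cells were thus found at a trace in libraries 1 and 3, and where the trace came from was not tested. With MEF library 2 as the only MEF library, the median log2 fold change over all tested genes was 0.24, against 0.22 in the main fit. That fit holds fewer samples, so that a count of its calls cannot show what the trace does.

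The largest fall was that of Lox, the lysyl oxidase that crosslinks collagen and elastin. It was at 913, 898 and 936 FPKM in MEFs and at 1.05, 1.40 and 0.964 in the lines (log2 fold change −8.75 ± 0.15, adjusted p = 5.2e-10). Ptn, a secreted growth factor, had the highest MEF level of the 15 largest falls, 1609, 1680 and 1964 FPKM, and was at 3.94, 2.69 and 3.39 in ciXEN cells. Of the other 13 genes, 9 encode interstitial collagens or proteins bound to them or to the matrix (Col1a1, Col1a2, Col3a1, Col5a2, Col12a1, Bgn, Postn, Thbs1 and Tnc), and Acta2 and Tagln belong to the contractile apparatus. Crabp1 binds retinoic acid, and Spp1 is the secreted phosphoprotein osteopontin. Spp1 varied most among the lines, at 4.47, 1.62 and 7.05 FPKM, and was at 898, 1103 and 895 in MEFs.

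**Figure D2:**
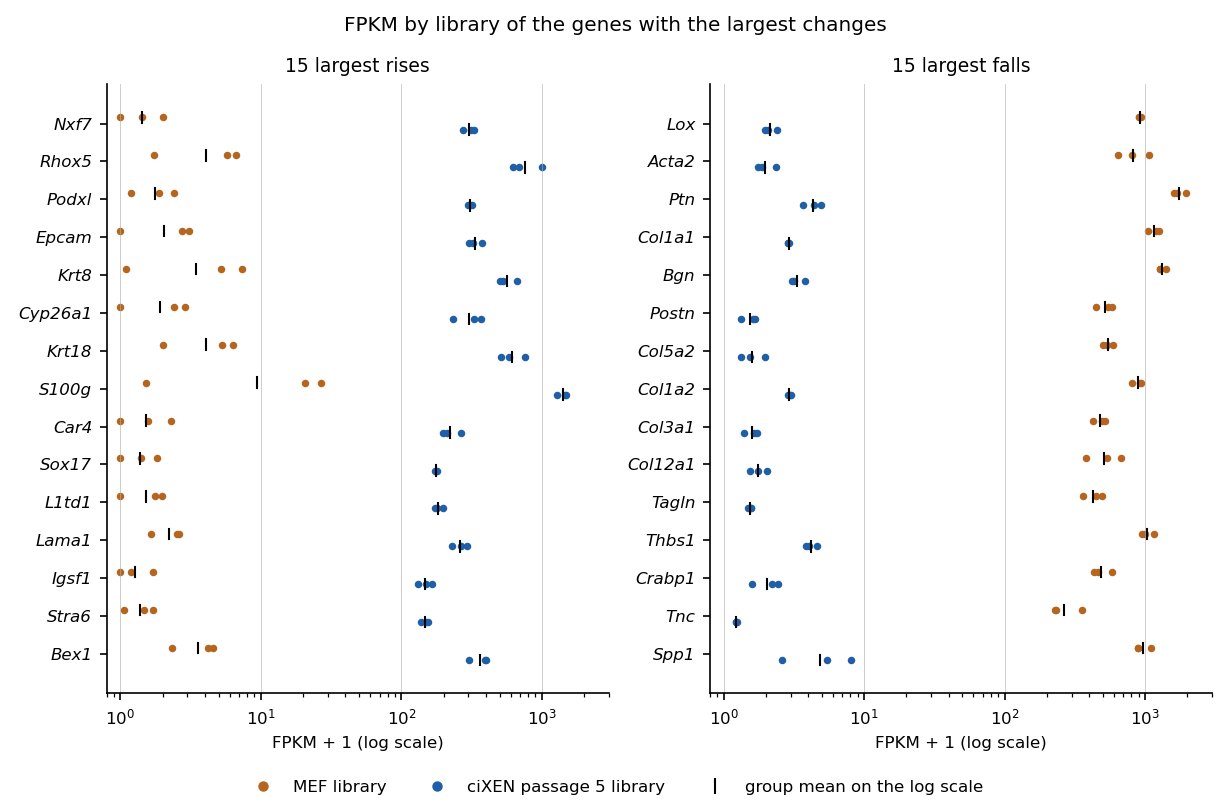
FPKM + 1, on a log scale, of the 15 genes with the largest rises (left) and the 15 with the largest falls (right), with 1 point per library in brown for MEFs and in blue for ciXEN cells at passage 5 and a black tick at the group mean on the log scale. The groups do not overlap for any of the 30 genes, and in the left panel 1 MEF library, replicate 2, lies below the other 2 for each gene.

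All 21 tested genes of a list of fibroblast and mesenchyme markers fell, with a median log2 fold change of −5.86 against 0.22 for all genes. Their summed FPKM was 4770, 5238 and 5403 in MEFs and 74.9, 97.3 and 92.9 in the lines. Prrx1, a homeobox factor of limb and craniofacial mesenchyme (chromosome 1 from 163245119 to 163313710, minus strand), was at 87.8, 148 and 175 FPKM in MEFs and at 0.151, 0.195 and 0.157 in the lines (log2 fold change −6.83 ± 0.23, adjusted p = 1.6e-08). Pdgfrb, a receptor of platelet-derived growth factor, was at 46.1, 53.8 and 52.6 FPKM and dropped to 0.413, 0.167 and 0.466. Twist2, a helix-loop-helix factor of mesenchyme, was at 6.69, 11.7 and 7.81 FPKM in MEFs and listed at 0 in all lines. The surface glycoprotein Thy1 kept a measurable level, 4.80, 10.2 and 4.42 FPKM against 67.3, 146 and 66.2 in MEFs (log2 fold change −3.64 ± 0.39, adjusted p = 3.1e-05). Twist1 also stayed above 1 FPKM in every line, at 2.04, 3.85 and 9.87 against 54.4, 39.6 and 53.1. In line 3-3 its level was thus highest, and there too it lay below all MEF libraries.

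Of 32 tested genes for the interstitial matrix and its crosslinking, 27 fell and 2 rose, with a median log2 fold change of −5.72. Col1a1, a chain of type I collagen, was at 1054, 1255 and 1192 FPKM in MEFs and at 1.89, 1.94 and 1.88 in the lines, a spread among lines of under 0.1 FPKM. Bgn, a small proteoglycan that binds collagen fibrils, was at 1284, 1274 and 1415 FPKM and at 2.09, 2.78 and 2.19. The risen genes were Fbln1, a matrix glycoprotein also found in basement membranes, at 95.3, 96.6 and 87.2 FPKM against 29.0, 40.6 and 40.6 (log2 fold change 1.33 ± 0.13, adjusted p = 1.4e-05), and P4ha2, a subunit of the prolyl hydroxylase that modifies collagen. P4ha2 was at 46.7, 19.8 and 48.9 FPKM against 23.6, 15.1 and 17.1, so that line 2-1 lay within the range of the MEF libraries (log2 fold change 0.93 ± 0.34, adjusted p = 0.034), and the call was lost without MEF library 2 or 3 or line 1-1 or 3-3, with adjusted p from limma of 0.091 to 0.12, and under equal medians (0.064) and quantiles (0.058). Plod2, a lysyl hydroxylase of collagen, and Loxl2, a second lysyl oxidase, did not pass. Plod2 was at 55.9, 93.5 and 74.5 FPKM against 62.8, 52.7 and 55.1, and Loxl2 at 33.6, 54.4 and 39.4 against 61.9, 128 and 54.2.

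A list of contractile genes, many of them known targets of serum response factor (SRF), fell as a whole: 21 of 21 tested genes, with a median of −3.04. The smooth muscle actin Acta2 was at 801, 1062 and 642 FPKM in MEFs and at 0.867, 1.34 and 0.764 in the lines (log2 fold change −8.69 ± 0.19, adjusted p = 2.1e-09). Actg2, the related enteric actin, was at 85.4, 150 and 53.3 FPKM and listed at 0 in the lines. Actins share long stretches of sequence, and the files do not say how reads common to them were assigned. The tropomyosin Tpm2 was at 308, 361 and 267 FPKM and at 6.10, 4.91 and 6.46, and the calponin Cnn1 at 43.3, 53.2 and 38.9 and at 0.552, 0.266 and 0.877. Srf itself changed least of the list, from 10.9, 12.2 and 10.8 FPKM to 9.09, 8.10 and 9.66 (log2 fold change −0.31 ± 0.12, adjusted p = 0.037), and its call was lost without any MEF library or without line 1-1 or 2-1, with adjusted p from limma of 0.059 to 0.12.

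SRF binds DNA letters known as the CArG box. RefSeq promoter windows, from 250 bases before to 50 bases after a gene's start on GRCm38.p6, were matched for 19 of the 21 contractile genes, and 4 of them hold an exact CArG box, 21.1%, against 1.57% of all 27025 windows of the table. Because the list was drawn up with known SRF targets in it, a high share was built in and is no result of these data. The motif equals its own reverse complement in form, so that both strands were covered. The genes with a match, Cnn2, Myl9, Srf and Vcl, were chosen for it after their values were seen, and the stretch of 100 bases around each match is printed with the CArG box in capitals, because these are the fallen genes of the list whose promoter letters carry the motif. Cnn2 lies at chr10:79988500-79988599 (plus strand), Myl9 at chr2:156775264-156775363 (plus strand), Srf at chr17:46556183-46556282 (minus strand) and Vcl at chr14:20929148-20929247 (plus strand).
Cnn2: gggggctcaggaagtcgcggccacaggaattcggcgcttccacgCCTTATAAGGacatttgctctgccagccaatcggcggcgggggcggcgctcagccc
Myl9: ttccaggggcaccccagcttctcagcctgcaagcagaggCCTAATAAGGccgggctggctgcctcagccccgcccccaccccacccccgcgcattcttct
Srf: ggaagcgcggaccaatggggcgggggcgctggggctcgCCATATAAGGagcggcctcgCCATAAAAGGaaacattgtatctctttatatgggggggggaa
Vcl: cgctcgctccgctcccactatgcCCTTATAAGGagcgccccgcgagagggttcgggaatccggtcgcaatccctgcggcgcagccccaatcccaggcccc
Cnn2 and Vcl hold the same 10 letters. The match begins 56 bases before the start of Cnn2, 161 before that of Myl9 and 227 before that of Vcl, and Srf has a pair of matches, which begin 82 and 62 bases before its start. All 4 genes hold a match, so that their values cannot show whether the size of a fall follows one. Their falls differed in size. Myl9, a myosin light chain, was at 294, 292 and 230 FPKM in MEFs and at 2.22, 9.60 and 4.11 in the lines (log2 fold change −5.60), whereas Cnn2, a calponin, fell by 3.16 on the log2 scale, Vcl, the adhesion protein vinculin, fell by 3.04, and Srf by 0.31. A match is a description of letters and not of a bound site. For all genes that rose or fell by at least 4-fold the promoter comparison is void, since windows were matched for 574 of 776 risen genes (74%) and 695 of 973 fallen ones (71.4%).

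Targets of TGF-beta and SMAD signalling, which RepSox blocks at the receptor TGFBR1, fell in 17 of 17 tested cases, with a median log2 fold change of −5.24. The list shares Acta2, Col1a1, Fn1, Tagln, Thbs1 and Tnc with those above, so that it is not a separate measurement. Tgfbi, a secreted protein induced by TGF-beta, was at 124, 170 and 162 FPKM in MEFs and at 0, 0.0642 and 0 in the lines (log2 fold change −7.21 ± 0.15, adjusted p = 1.3e-09). Smaller falls were seen for the feedback inhibitors Pmepa1 (log2 fold change −2.48, adjusted p = 3.4e-06) and Smad7 (log2 fold change −1.21, adjusted p = 0.00015), both named after their values were seen. Smad7 was at 5.86, 4.32 and 4.07 FPKM in MEFs and at 1.30, 1.53 and 1.56 in ciXEN cells.

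All 10 tested transcription factors of primitive endoderm rose, with a median of 5.37 and no overlap between the groups. Sox17 (chromosome 1 from 4490931 to 4497354, minus strand) was almost equal in the lines, at 178, 173 and 176 FPKM, and at 0.835, 0 and 0.396 in MEFs (log2 fold change 7.01 ± 0.20, adjusted p = 6.7e-09). Gata4 was at 157, 163 and 154 FPKM against 1.27, 0.163 and 1.35, and Sox7 at 93.4, 114 and 93.3 against 0.420, 0.067 and 0.547. Foxa2 differed among the lines, at 82.3, 35.6 and 27.1 FPKM (log2 fold change 5.21 ± 0.34, adjusted p = 1.2e-06). Gata6 had the highest MEF level of the factors named here, 2.77, 3.17 and 2.505 FPKM, and rose to 41.1, 34.7 and 27.1 (log2 fold change 3.19 ± 0.16, adjusted p = 1.8e-07). Hnf4a, which governs later visceral endoderm and liver genes, reached only 2.57, 1.66 and 3.07 FPKM. Pdgfra, the receptor that marks primitive endoderm but is also known from mesenchyme, was present in MEFs at 35.0, 33.9 and 44.5 FPKM and rose to 278, 238 and 237 (log2 fold change 2.71 ± 0.17, adjusted p = 9.6e-07).

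Of 14 genes listed for parietal endoderm, 9 rose and 4 fell, with a median of 1.39. Lama1, the laminin chain of the earliest embryonic basement membranes, was at 291, 229 and 266 FPKM against 1.54, 0.661 and 1.62 (log2 fold change 6.88 ± 0.27, adjusted p = 4.9e-08), and its partner chain Lamb1 at 332, 299 and 305 against 67.5, 76.2 and 80.1 (log2 fold change 2.05 ± 0.10, adjusted p = 1.6e-07). Pth1r, the receptor of parathyroid hormone-related peptide that acts in the formation of parietal endoderm, was at 174, 157 and 191 FPKM against 3.79, 2.82 and 3.61. The fallen members were Sparc, Nid1, Hspg2 and Plat, of which the first 3 are matrix proteins that fibroblasts also make. Sparc was still among the most abundant transcripts of the lines, at 676, 559 and 587 FPKM against 1407, 1417 and 1447 (log2 fold change −1.23 ± 0.28, adjusted p = 0.0037). Plat, the tissue plasminogen activator, was at 4.17, 3.26 and 1.84 FPKM against 31.6, 49.1 and 36.4.

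Basement membrane genes changed in both directions, 7 up and 7 down of 16 tested, with a median of 0.51 that fell to 0.16 without line 2-1. Lama1, Lamb1 and Lamc1, whose chains join in a laminin trimer of early embryos, rose, while the chains Lama2 and Lama4 of mesenchymal laminins fell. Lama2 was at 9.19, 13.7 and 11.9 FPKM in MEFs and at 0, 0.0103 and 0.0155 in the lines, and Lama4 at 54.2, 55.2 and 60.7 and at 5.06, 3.77 and 4.21. Among the chains of type IV collagen, Col4a2 was at 601, 652 and 618 FPKM against 89.4, 122 and 84.7 (log2 fold change 2.67 ± 0.15, adjusted p = 4.3e-07), Col4a5 was at 0.0626, 0.0305 and 0.0228 against 8.40, 17.1 and 11.2, and Col4a1 did not pass. Col18a1, which gives the collagen of vascular basement membranes, was at 0.0366, 0.504 and 0.174 FPKM against 25.7, 29.0 and 31.2. Nid2 was at 21.9, 17.5 and 22.6 FPKM against 27.0, 14.6 and 30.3, with no call.

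Col4a1 and Col4a2 are transcribed from a shared promoter and their chains join in the same trimer, yet only Col4a2 was even across the lines. Col4a1 was at 93.6, 739 and 80.3 FPKM in lines 1-1, 2-1 and 3-3 and at 69.0, 99.5 and 44.0 in MEFs (log2 fold change 1.39 ± 1.04, adjusted p = 0.26). Lines 1-1 and 3-3 were thus within or near the MEF range at passage 5, and line 2-1 was far above it. At passage 30 the same lines 1-1, 2-1 and 3-3 were at 52.6, 506 and 648 FPKM, so that the order of the lines was not kept. Of 3 listed Col4a1 transcripts, ENSMUST00000033898.9 carried nearly the whole value, 91.3, 736 and 77.8 FPKM in the lines.

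Among 10 tested visceral endoderm genes, 7 rose and 2 fell (median 2.59). Cited1, a transcriptional coregulator, was at 197, 179 and 198 FPKM against 1.39, 0 and 1.90 (log2 fold change 6.65 ± 0.32, adjusted p = 1.7e-07). Lrp2 and Cubn, endocytic receptors that form a complex on absorptive epithelium, were at 43.7, 51.3 and 49.1 FPKM and at 8.34, 6.05 and 12.8, against 0.225 at most and 0.375 at most in MEFs. The ligands Ihh and Bmp2 were at 27.3, 34.6 and 20.9 FPKM and at 20.8, 16.1 and 19.7. The adaptor Dab2 went down, from 28.4, 27.5 and 31.1 FPKM to 16.2, 14.9 and 16.7 (log2 fold change −0.82 ± 0.20, adjusted p = 0.0056), and so did the retinol carrier Rbp4, which was under 1 FPKM in every line. Afp and Ttr, secreted products by which visceral endoderm is often recognised, were near 0, Afp at 0.0497, 0.0207 and 0 FPKM and Ttr at 1.03, 0.603 and 0.854. This holds for these genes and not for every secreted product of the list. Among liver genes, Alb was listed at 0 in all 6 libraries, Onecut1 was at 1.34, 1.48 and 1.40 FPKM in the lines and listed at 0 in MEFs, and Ahsg was at 1.09, 1.99 and 2.93 FPKM, also against 0.

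Genes that mark endoderm of the gastrula, some of them shared with primitive endoderm, rose in 5 of 5 tested cases. Eomes, a T-box factor, was at 14.9, 9.94 and 14.7 FPKM against 0.131, 0 and 0.0794 in MEFs (log2 fold change 3.71 ± 0.20, adjusted p = 3.5e-07), and Hhex at 3.57, 2.31 and 3.68 against 0.892, 0.838 and 0.458. The chemokine receptor Cxcr4 lay under the filter on low values and was not tested. It was at 1.16, 0.512 and 1.17 FPKM in the lines and at 0, 0.0995 and 0 in MEFs.

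**Figure D3:**
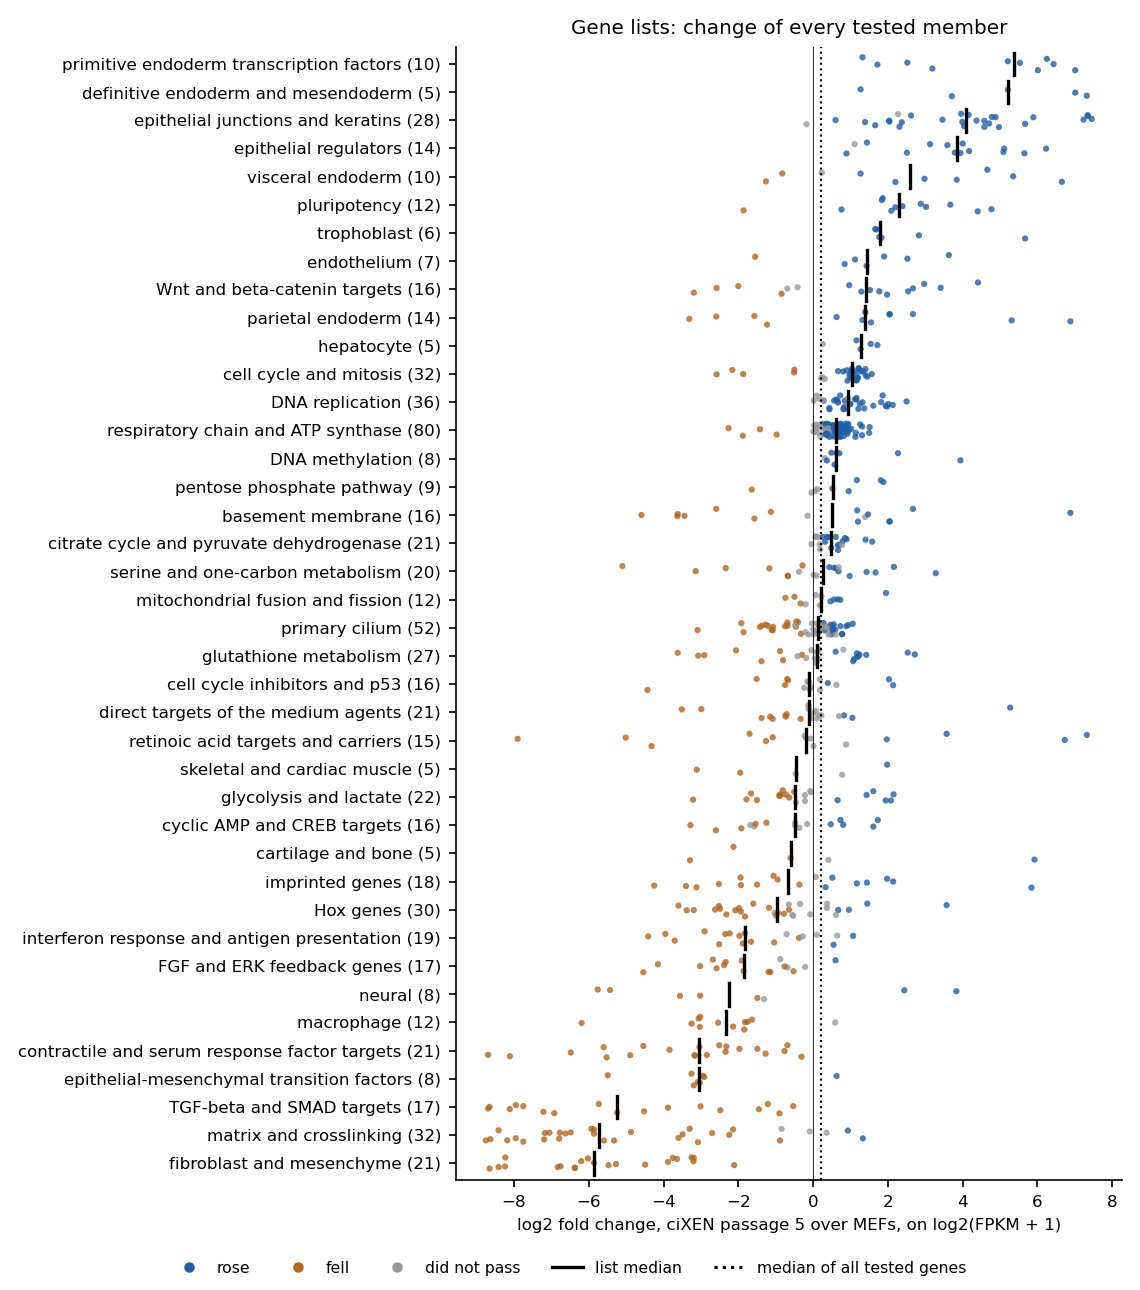
Log2 fold change of ciXEN cells at passage 5 over MEFs for every tested member of each gene list with at least 5 tested members, ordered by the list median (black bar). Each point is a gene, in blue where it rose, in brown where it fell and in grey where it did not pass, the number of tested members is in brackets, and the dotted line is the median of all tested genes, 0.22. Lists run from primitive endoderm factors, with a median of 5.37, to fibroblast and mesenchyme genes, with a median of −5.86, and some genes belong to more than 1 list.

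Of 28 tested genes for epithelial junctions and keratins, 26 rose and none fell (median 4.10), and their summed FPKM was 71.9, 65.1 and 60.9 in MEFs and 2825, 2586 and 2228 in the lines. Cdh1, the E-cadherin of adherens junctions, was at 85.3, 115 and 68.2 FPKM against 0.903, 0 and 0.749 (log2 fold change 5.89 ± 0.37, adjusted p = 9.6e-07). Ocln, a membrane protein of tight junctions, was at 29.0, 32.3 and 37.7 FPKM against 0.414, 0 and 0.512, and Lsr, a protein of tricellular junctions, at 78.7, 89.9 and 82.3 against 1.01, 0.493 and 0.528. Jup, the plakoglobin of desmosomes and adherens junctions, was at a like level in both groups, 11.6, 8.74 and 7.78 FPKM against 10.6, 12.2 and 9.15, with no call. Marveld2, a second tricellular protein, was at 7.17 and 14.9 FPKM in lines 1-1 and 2-1 and at 0.0245 in line 3-3, and did not pass (log2 fold change 2.27 ± 0.92, adjusted p = 0.054).

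Among 14 regulators of epithelial identity, 13 rose (median 3.86). The ETS factor Elf3 was at 101, 116 and 129 FPKM against 0.978, 0 and 0.870 (log2 fold change 6.23 ± 0.28, adjusted p = 9.9e-08). Esrp1 and Esrp2, which direct epithelial splicing, were at 40.9, 38.4 and 32.8 FPKM and at 21.8, 25.8 and 18.3, against less than 0.5 FPKM in each MEF library. The zinc finger factor Ovol2, a repressor of mesenchymal genes, was at 17.1, 15.1 and 18.9 FPKM and listed at 0 in MEFs. The membrane protease St14 and its inhibitor Spint2 both rose, Spint2 to 166, 206 and 164 FPKM from 3.83, 1.63 and 2.52.

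Of 8 factors known for the epithelial-mesenchymal transition, 7 fell and 1 rose (median −3.06). Snai2 was at 129, 116 and 178 FPKM in MEFs and at 1.72, 2.59 and 2.05 in the lines (log2 fold change −5.49 ± 0.22, adjusted p = 5e-08). Zeb1 and Zeb2 were at 1.18, 0.898 and 1.61 FPKM and at 3.85, 1.92 and 3.51 in the lines, and the lowest MEF values were 14.5 and 24.2. The member that rose was Snai1, from 29.5, 27.0 and 25.1 FPKM to 42.2, 41.8 and 43.7 (log2 fold change 0.63 ± 0.16, adjusted p = 0.0057), a gene that is also known from parietal endoderm. Vim, the intermediate filament of mesenchyme, fell by 3.03 on the log2 scale and remained abundant, at 128, 77.9 and 102 FPKM against 895, 731 and 878.

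The 3 lines were alike for most genes. The ratio of the highest to the lowest line, on FPKM + 1, had a median of 1.22 over the tested genes, against 1.21 for the 3 MEF libraries, and it reached 5 for 55 genes among the lines and for 47 among the MEF libraries. There was 1 library per line at passage 5, and differences between lines were not tested. Of the 10 risen genes with the largest ratios, line 3-3 was the lowest for 9. These genes were picked for their ratio in these same libraries, so that the count describes them only. How often each line was lowest over all tested genes was not counted. Apoc1, an apolipoprotein, was at 63.8, 27.1 and 0.877 FPKM in lines 1-1, 2-1 and 3-3, and Tdgf1, a co-receptor for Nodal, at 21.8, 14.3 and 0.209. Without line 1-1 their adjusted p from limma was 0.055 and 0.063, and without line 2-1 it was 0.054 and 0.064. Ap1m2, an adaptor subunit for sorting in epithelial cells, was at 14.5, 23.9 and 0.739 FPKM, and Cldn4, a claudin of tight junctions, at 25.3, 29.1 and 5.51. The exception was Cldn6, an early embryonic claudin, which was lowest in line 2-1, at 9.52 FPKM against 63.8 in line 1-1 and 26.0 in line 3-3.

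Line 2-1 was the highest for 7 of the 10 genes with the largest ratios that did not pass against MEFs. These genes too were picked for that ratio, and 1 line standing off widens the spread that keeps a gene from passing. The count therefore describes these genes only. Gpx2, a glutathione peroxidase of epithelia, was at 37.3 FPKM in line 2-1, at 0.185 and 0.115 in the other lines and listed at 0 in MEFs. The immediate early gene Fos was at 22.5 FPKM in line 2-1 and at 1.26 and 0.276 in the other lines, and in MEFs it ranged from 4.08 to 59.9. For some of these genes the value moved between transcripts as well as between lines. ENSMUST00000112600.8 of the Polycomb gene Phc1 was at 23.8 and 24.3 FPKM in lines 1-1 and 3-3 and at 0.00865 in line 2-1, and among MEF libraries at 9.10 in library 2 and at 0 in the other pair. The sum for Tspan5, a tetraspanin that rose (log2 fold change 1.83 ± 0.68, adjusted p = 0.037), followed ENSMUST00000119993.7 in the same manner, at 19.8, 21.4 and 0.016 FPKM in the lines and at 8.47 FPKM in MEF library 2 alone of the MEF libraries. The call of Tspan5 was lost without MEF library 1 or 3 or line 1-1 or 2-1 (adjusted p from limma 0.10 to 0.14), under equal medians (0.050) and without the passage 30 libraries (0.069).

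**Figure D4:**
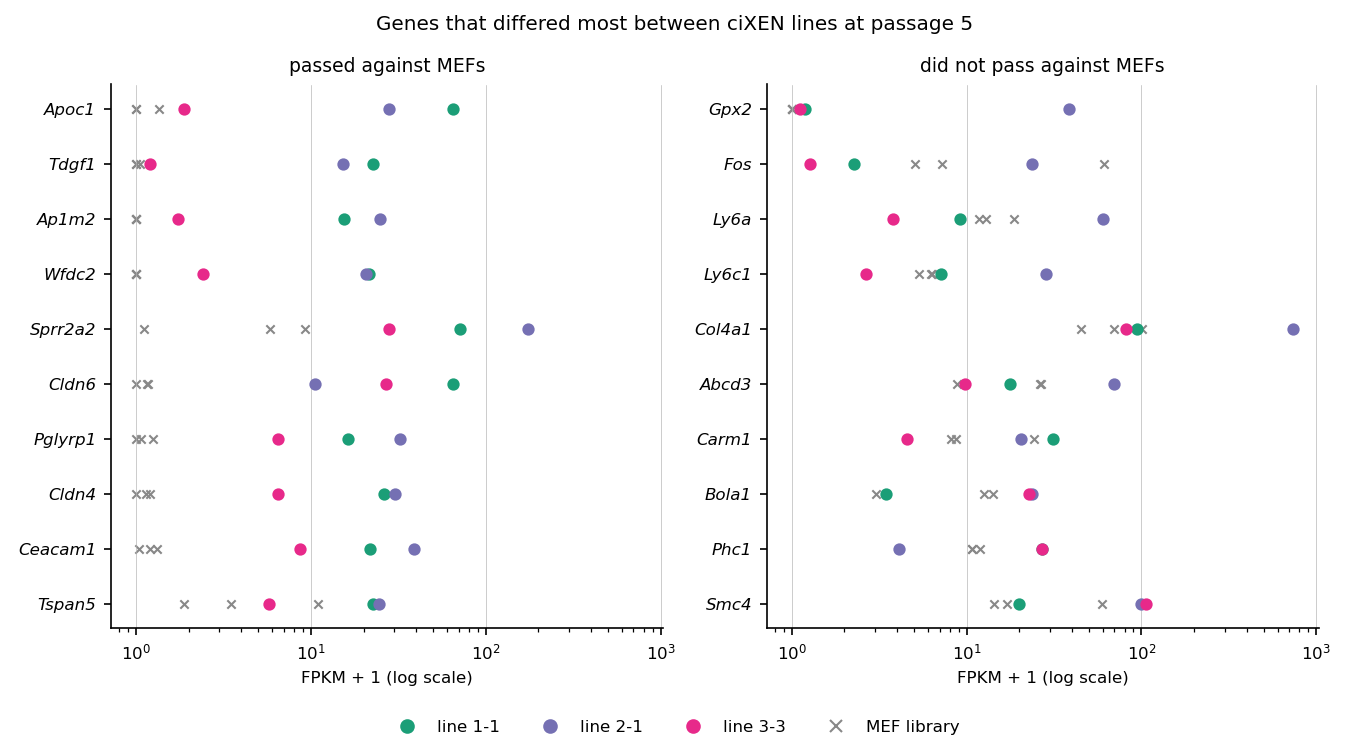
FPKM + 1, on a log scale, of the genes with the largest ratio between lines at passage 5, among genes that rose against MEFs (left) and among genes that did not pass (right). Coloured points are the lines, with 1 library each, and grey crosses the 3 MEF libraries. In the left panel line 3-3 is the lowest line for 9 of 10 genes, and in the right panel line 2-1 is the highest for 7 of 10, with Col4a1 at 739 FPKM.

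Chromosome 15 stood apart in line 1-1. The median log2 fold change over MEFs of its 491 tested genes was 0.49 in line 1-1, 0.23 in line 2-1 and 0.24 in line 3-3. Of these genes, 406 were higher in line 1-1 than in the mean of the other lines, which is 82.7%, against 46.2% on the other autosomes. The median difference was 0.24 on the log2 scale for chromosome 15 and lay between −0.04 and 0.01 for each other autosome. Krt8 and Krt18, which lie on chromosome 15, were both highest in line 1-1, Krt18 at 756, 580 and 513 FPKM. At passage 30 the medians of chromosome 15 were 0.12, 0.09 and 0.12, and line 1-1 equalled line 3-3 by this measure. Copy number was not measured here, and a cause was not tested.

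The agents in the ciXEN medium act on known proteins, and their targets and downstream genes were examined next. Of 21 tested genes for the direct targets, 3 rose and 8 fell (median −0.12). Of the 4 tested histone deacetylases of the class on which VPA acts, 3 did not pass, with Hdac2 at 81.0, 78.5 and 89.7 FPKM against 79.2, 77.3 and 73.9, and Hdac8 fell from 6.62, 7.38 and 9.67 FPKM to 2.40, 3.10 and 3.47 (log2 fold change −1.15 ± 0.17, adjusted p = 0.00028). The kinase Gsk3b, the target of CHIR99021, was at 17.2, 20.4 and 15.4 FPKM against 17.8, 20.8 and 18.9, and the demethylase Kdm1a, which Parnate inhibits, at 24.2, 32.8 and 32.9 against 24.05, 27.2 and 24.96, neither with a call, although Kdm1a passed without line 1-1 (adjusted p = 0.023 from limma). Hdac2, Gsk3b and Kdm1a were named after their values were seen. The study describes Parnate as an inhibitor of monoamine oxidases, and the monoamine oxidase genes of the list fell, with log2 fold changes of −0.332 and −0.727. Dot1l, the histone methyltransferase that EPZ004777 inhibits, rose from 9.28, 11.5 and 8.79 FPKM to 17.9, 19.3 and 17.4 (log2 fold change 0.83 ± 0.12, adjusted p = 0.00027). Rara, the retinoic acid receptor to which AM580 binds, fell from 30.1, 31.1 and 27.6 FPKM to 13.8, 14.8 and 11.8 (log2 fold change −1.08 ± 0.13, adjusted p = 6.9e-05).

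Among the receptors of bFGF, Fgfr1 and Fgfr4 exchanged their order, and no other FGF receptor of the list passed. Fgfr1 was at 56.0, 57.6 and 64.2 FPKM in MEFs and at 3.97, 4.30 and 4.61 in the lines (log2 fold change −3.51 ± 0.16, adjusted p = 1.1e-07), and Fgfr4 at 0.188, 0 and 0.155 in MEFs and at 39.9, 36.7 and 50.6 in the lines (log2 fold change 5.27 ± 0.22, adjusted p = 6.3e-08). Downstream, 13 of 17 feedback genes of FGF and ERK signalling fell and 1 rose (median −1.86). The ETS factor Etv5 was at 10.1, 9.01 and 13.7 FPKM in MEFs and at 0.376, 0.515 and 0.456 in the lines, and the phosphatase Dusp6, which acts on ERK, at 9.03, 6.31 and 6.42 and at 0.163, 0.548 and 0.147. Spry2, an inhibitor of receptor tyrosine kinase signalling, was the exception, at 26.4, 27.5 and 20.8 FPKM against 17.6, 14.6 and 15.99 (log2 fold change 0.60 ± 0.22, adjusted p = 0.035), and its call was lost under equal medians or quantiles and without any library except line 3-3, with adjusted p from limma of 0.052 to 0.10. The time from the last feeding to lysis was not found in the sources used here, and many of these genes respond within hours.

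Of 16 tested genes downstream of Wnt and beta-catenin, which CHIR99021 activates, 10 rose and 4 fell (median 1.41). Axin2, the feedback inhibitor most widely used as a readout, was at 31.4, 32.2 and 29.0 FPKM against 0.558, 0.301 and 0.650 (log2 fold change 4.41 ± 0.17, adjusted p = 4e-08). The secreted antagonist Dkk1 was at 11.5, 9.17 and 9.87 FPKM against 0.144, 0 and 0, and the transcription factor Tcf7 at 14.2, 13.6 and 10.8 against 0.571, 0.889 and 0.830. The members that fell include Ccnd1 and Myc, which are also growth-factor targets, and Lgr5. Ccnd1 was at 7.04, 7.16 and 5.01 FPKM against 57.4, 30.1 and 45.8, Myc at 9.28, 7.95 and 5.68 against 32.1, 35.1 and 31.8, and Lgr5, a receptor for R-spondins, at 0.180, 0.340 and 0.307 against 14.9, 4.02 and 18.6.

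Retinoic acid genes were split, with 4 of 15 up, 6 down and a median of −0.19. Cyp26a1, the enzyme that clears retinoic acid and is itself induced by it, was at 370, 327 and 231 FPKM against 1.41, 0 and 1.88 (log2 fold change 7.32 ± 0.40, adjusted p = 3.3e-07). Stra6, the retinol receptor, was at 138, 149 and 153 FPKM against at most 0.700 in MEFs. The cellular carriers fell: Crabp1 was at 460, 435 and 578 FPKM in MEFs and at 1.21, 1.46 and 0.585 in the lines (log2 fold change −7.90 ± 0.39, adjusted p = 1.7e-07), and Crabp2 at 102, 133.9 and 114 and at 4.63, 2.30 and 9.94. Rarg, a further receptor, was at 45.6, 43.3 and 46.4 FPKM and at 0.644, 0.389 and 0.272.

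Genes downstream of cyclic AMP, which forskolin raises, rose in 5 and fell in 5 of 16 cases (median −0.48). The kinase Sik1 was at 12.8, 9.42 and 6.52 FPKM against 2.30, 2.22 and 1.80 (log2 fold change 1.73 ± 0.27, adjusted p = 0.00038), and the coactivator Ppargc1a at 3.42, 1.65 and 2.34 against 0.161, 0.117 and 0.0647. The nuclear receptor Nr4a1 was at 2.06, 2.23 and 1.61 FPKM against 39.8, 11.1 and 10.7, and Rgs2, a regulator of G-protein signalling, at 0, 0.0331 and 0 against 11.3, 6.79 and 8.99. MEF library 1 was the highest of the MEF libraries for Nr4a1 and for Fos, at 59.9 FPKM against 6.19 and 4.08.

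**Figure D5:**
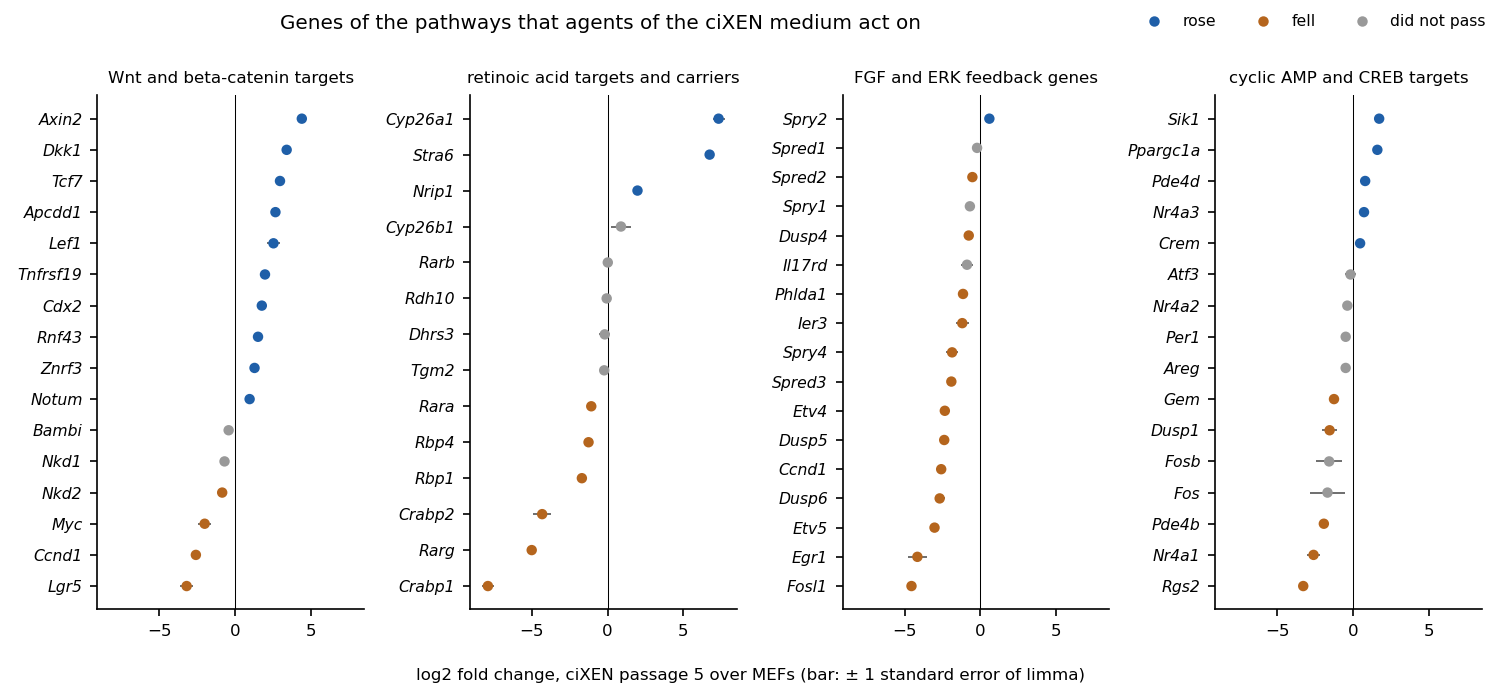
Log2 fold change of ciXEN cells at passage 5 over MEFs for the tested and reported genes of 4 pathways on which agents of the ciXEN medium act, with bars of ± 1 standard error from the limma fit. Blue points rose, brown points fell and grey points did not pass. Wnt and beta-catenin targets lie mostly to the right, with Axin2 at 4.41, FGF and ERK feedback genes mostly to the left, and the retinoic acid list reaches from 7.32 for Cyp26a1 to −7.90 for Crabp1.

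Genes of energy metabolism changed in both directions. In glycolysis and lactate handling, 6 genes rose and 11 fell of 22 tested (median −0.48). The uptake and first step rose: the glucose transporter Slc2a1 was at 50.1, 62.4 and 68.5 FPKM against 20.8, 27.1 and 17.6 (log2 fold change 1.43 ± 0.21, adjusted p = 0.00022), and hexokinase Hk2 at 29.0, 25.6 and 28.1 against 7.70, 10.03 and 7.42 (log2 fold change 1.62 ± 0.16, adjusted p = 1.6e-05). The subunits of phosphofructokinase, Pfkl, Pfkm and Pfkp, all fell, though Pfkm lost its call without MEF library 1 or 3 or line 2-1 or 3-3 (adjusted p from limma 0.053 to 0.076), and Pfkp fell most, from 18.4, 15.3 and 16.5 FPKM to 3.81, 6.53 and 5.69 (log2 fold change −1.50 ± 0.20, adjusted p = 0.00012). Further down the pathway, Pgk1 was at 30.9, 37.5 and 30.0 FPKM against 118, 104 and 93.8, and Eno1 at 60.9, 87.9 and 81.5 against 282, 249 and 258. Lactate dehydrogenase changed its subunits, with Ldha at 94.0, 115 and 67.1 FPKM against 175, 153 and 148 (log2 fold change −0.81 ± 0.19, adjusted p = 0.0039) and Ldhb at 107, 180 and 130 against 29.5, 27.2 and 38.5 (log2 fold change 2.08 ± 0.20, adjusted p = 1.3e-05). The lactate transporters changed in opposite directions: Slc16a1 was at 51.4, 50.7 and 46.1 FPKM against 12.8, 12.4 and 11.1, and Slc16a3 at 0.714, 1.11 and 0.996 against 21.4, 17.9 and 12.4.

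Mitochondrial enzymes were raised by smaller amounts. Of 21 genes of the citrate cycle and pyruvate dehydrogenase, 14 rose and none fell (median 0.48), and of 80 genes of the respiratory chain and ATP synthase, 61 rose and 4 fell (median 0.60). The summed FPKM of the respiratory list was 6081, 5456 and 5681 in MEFs and 8971, 9118 and 8532 in the lines. Idh3b, a subunit of isocitrate dehydrogenase, was at 152, 155 and 144 FPKM against 50.3, 48.3 and 49.98 (log2 fold change 1.58 ± 0.08, adjusted p = 2.2e-07), and Cyc1, the cytochrome of complex III, at 81.1, 69.3 and 69.7 against 25.3, 25.8 and 24.1. The fallen respiratory genes include Cox6a2, Cox4i2 and Ndufa4l2, isoforms or relatives of more widely expressed subunits, all listed at 0 in the lines and under 5 FPKM in MEFs. The shift of the median gene, 0.22, is a sizeable part of these list medians. Under equal medians, when the median of all genes was 0.10, the median of the respiratory list was 0.47 and that of the citrate cycle list 0.35.

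In the pentose phosphate pathway 5 of 9 genes rose (median 0.52). Pgd, its second dehydrogenase, was at 105, 79.8 and 118 FPKM against 28.5, 29.4 and 25.2, while the first, G6pdx, was at 33.2, 30.2 and 29.6 against 31.7, 27.5 and 30.2, with no call. In serine and one-carbon metabolism 9 of 20 genes rose and 7 fell (median 0.26, which was 0.43 without MEF library 2 and 0.15 without MEF library 3). The cytosolic folate enzymes Shmt1 and Mthfd1 rose, to 21.5, 22.8 and 28.1 FPKM from 4.83, 4.63 and 4.30 and to 71.0, 71.2 and 84.8 from 26.8, 20.3 and 22.2. The mitochondrial folate enzymes Shmt2, Mthfd1l, Mthfd2, Mthfd2l and Aldh1l2 fell, Aldh1l2 to 1.42, 1.26 and 0.571 FPKM from 65.4, 69.6 and 73.7 (log2 fold change −5.10 ± 0.31, adjusted p = 6.7e-07). Gldc and Gcsh, of the mitochondrial glycine cleavage system, rose. Of 27 genes of glutathione metabolism, 10 rose and 8 fell. Gpx8, a peroxidase of the endoplasmic reticulum, was at 11.4, 12.1 and 16.4 FPKM against 119, 91.9 and 107, and Gstk1, a glutathione transferase, at 23.0, 22.4 and 22.6 against 2.44, 3.03 and 2.34.

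Genes of division and DNA replication rose broadly. Of 32 tested for the cell cycle and mitosis, 24 rose and 5 fell (median 1.04), and of 36 for DNA replication, 30 rose and none fell (median 0.94). The cyclin Ccnb1 was at 57.7, 52.5 and 52.7 FPKM against 20.2, 19.3 and 18.2 (log2 fold change 1.45 ± 0.08, adjusted p = 4.7e-07), and the kinase Cdk2 at 37.0, 35.7 and 41.8 against 13.2, 11.7 and 11.6. Gmnn, which keeps replication to once a cycle by inhibiting Cdt1, was at 70.8, 75.6 and 76.5 FPKM against 18.9, 16.2 and 13.9 (log2 fold change 2.13 ± 0.11, adjusted p = 2.4e-07), and Cdt1, the licensing factor it binds, at 25.9, 30.3 and 28.3 against 5.53, 1.89 and 6.21. All D-type cyclins went the other way. Besides Ccnd1, Ccnd2 was at 15.4, 32.6 and 19.2 FPKM against 87.7, 80.2 and 75.4 (log2 fold change −1.87), and Ccnd3 at 22.7, 7.83 and 11.2 against 62.1, 54.9 and 64.2 (log2 fold change −2.16). The share of cycling cells was not measured in these libraries.

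Among 16 inhibitors of the cycle and p53 targets, 3 rose and 5 fell (median −0.10). Cdkn2b, an inhibitor that TGF-beta induces, was at 1.38, 2.30 and 0.843 FPKM against 43.4, 61.3 and 51.9 (log2 fold change −4.43 ± 0.23, adjusted p = 2.2e-07). Cdkn1a, a p53 target that inhibits cyclin-dependent kinases, was at 34.5, 31.6 and 20.5 FPKM against 103, 82.0 and 65.8, and Trp53 itself at 45.1, 31.9 and 48.7 against 72.7, 71.9 and 65.6. The imprinted inhibitor Cdkn1c rose to 73.7, 37.8 and 90.0 FPKM from 14.1, 9.67 and 18.2. Cdkn2a, whose locus adjoins that of Cdkn2b, was at 29.1, 33.3 and 33.6 FPKM against 27.0, 41.9 and 32.6, with no call.

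Of 12 tested genes known from pluripotent cells, 11 rose and 1 fell (median 2.30), while others of the list, Pou5f1 and Nanog among them, were not analysed here. Klf4 had the highest level, 163, 167 and 114 FPKM against 26.0, 10.9 and 17.5 (log2 fold change 3.02 ± 0.31, adjusted p = 2.5e-05). Sox2 was at 21.8, 26.0 and 16.4 FPKM against 0.0641, 0.0214 and 0.0448 (log2 fold change 4.40 ± 0.25, adjusted p = 4.6e-07), the RNA-binding Lin28a at 21.4, 31.9 and 32.5, and the nuclear receptor Esrrb at 13.3, 16.6 and 7.15, the last listed at 0 in MEFs. Several of these genes are also active in extraembryonic lineages. The member that fell was Klf2, at 1.72, 3.25 and 1.62 FPKM against 15.1, 6.08 and 11.6. Trophoblast genes rose in 6 of 6 tested cases at mostly low levels. Cdx2 was at 2.59, 2.32 and 2.32 FPKM and listed at 0 in MEFs, and the X-linked homeobox gene Esx1 reached 45.8, 34.0 and 130 FPKM against 0.181, 0 and 0.384.

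The enzymes of DNA methylation rose in 7 of 8 cases (median 0.60). The de novo methyltransferase Dnmt3b was at 39.7, 23.4 and 29.4 FPKM against 1.30, 0.890 and 0.900 (log2 fold change 3.94 ± 0.21, adjusted p = 2.9e-07), and the dioxygenase Tet1, which starts demethylation, at 6.37, 8.37 and 10.7 against 0.928, 0.646 and 1.27. The maintenance enzyme Dnmt1 changed by less, from 37.9, 39.3 and 34.2 FPKM to 51.2, 51.6 and 54.3 (log2 fold change 0.49 ± 0.09, adjusted p = 0.00081). Imprinted genes rose in 7 and fell in 10 of 18 cases (median −0.66). Mest was at 8.01, 9.18 and 6.65 FPKM against 187, 108 and 233, Dlk1 at 3.85, 7.89 and 5.41 against 84.8, 35.2 and 57.2, and the growth factor Igf2 at 39.0, 20.9 and 22.2 against 72.0, 216 and 239. The alleles were not separated in these values.

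Hox genes, which record position along the body axis, fell in 17 and rose in 4 of 30 tested cases (median −0.96). Among those that fell, Hoxd13 was at 0.261, 0.429 and 0.738 FPKM against 14.03, 12.4 and 16.3, Hoxc8 at 0.0272, 0.261 and 0.0604 against 12.8, 12.6 and 12.2, and Hoxb6 at 0, 0 and 0.196 against 5.64, 5.86 and 5.10. The risen members include Hoxc4, at 8.46, 10.8 and 11.4 FPKM against 2.85, 3.56 and 2.85 (log2 fold change 1.45 ± 0.17, adjusted p = 6.6e-05). Hoxb7 did not pass, and was at 1.41, 2.91 and 7.03 FPKM against 5.90, 6.62 and 4.56, with line 3-3 above the MEF libraries.

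Markers of other cell types were counted because a fibroblast culture can hold them. Of 12 tested macrophage genes, 11 fell and none rose (median −2.34), and their summed FPKM was 197, 118 and 147 in MEFs and 8.48, 4.31 and 6.87 in the lines. Lyz2, a lysozyme of myeloid cells, was at 121, 61.0 and 94.9 FPKM in MEFs and under 0.4 in the lines, and C1qa and C1qb, complement components, were at 5.38 to 9.34 in MEFs and listed at 0 in all lines. The defining markers of the list were low in MEFs too, with Csf1r between 1.85 and 4.42 FPKM. In bulk libraries, fewer cells of a type and less RNA per cell cannot be told apart, and the part that such cells have in the falls of other genes was not tested. Of 8 neural genes 5 fell and 2 rose, with Ncam1 at 46.4, 120 and 41.0 FPKM in MEFs and under 0.3 in the lines, and Elavl4, an RNA-binding protein of neurons, at 0.393, 0.386 and 0.218 in MEFs and at 19.6, 15.7 and 18.8 in the lines. Endothelial genes rose in 6 of 7 cases, led by the VEGF receptor Flt1, which trophoblast also makes, at 185, 230 and 201 FPKM against 13.6, 19.99 and 13.97 (log2 fold change 3.63 ± 0.22, adjusted p = 7.4e-07). The cadherin Cdh5, a defining marker of endothelium, was at 4.72, 1.93 and 2.52 FPKM. Alpl, the tissue-nonspecific alkaline phosphatase of bone and of early embryonic cells, was the only riser of 5 tested cartilage and bone genes, at 64.5, 95.2 and 53.2 FPKM against 0.118, 0 and 0.365.

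Interferon-response and antigen-presentation genes fell in 13 and rose in 2 of 19 cases (median −1.82). Isg15, a ubiquitin-like protein induced by interferon, was at 2.08, 9.25 and 0.0491 FPKM against 113, 38.4 and 69.3 (log2 fold change −4.41 ± 0.71, adjusted p = 0.00043). Ifit1 and Ifit3 varied within both groups, Ifit3 at 57.6, 5.72 and 27.8 FPKM in MEFs and at 0.158, 1.42 and 0.0842 in the lines. Line 2-1 was the highest line and MEF library 2 the lowest MEF library for these 3 genes. The class I genes H2-K1 and H2-D1 rose, H2-K1 to 15.5, 9.25 and 10.5 FPKM from 5.37, 5.41 and 4.11, although class I genes are alike in sequence and can share reads.

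Genes of the primary cilium showed no common direction, with 17 up, 17 down and 18 not passed of 52 tested (median 0.12). Pkd2, a calcium channel of the ciliary membrane, was at 7.45, 2.56 and 10.1 FPKM against 54.0, 55.7 and 65.3 (log2 fold change −3.09 ± 0.42, adjusted p = 0.00016), and the hedgehog regulator Kif7 at 0.353, 0.162 and 0.403 against 4.39, 3.19 and 4.29. Of 12 genes for mitochondrial fusion and fission, 5 rose and 3 fell (median 0.20). The fusion proteins Opa1 and Mfn1 rose, Opa1 to 27.9, 27.7 and 32.7 FPKM from 18.2, 17.5 and 16.3, and Mfn2 fell, to 11.1, 11.3 and 10.6 FPKM from 17.7, 20.5 and 19.1 (log2 fold change −0.74 ± 0.11, adjusted p = 0.00021).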

How the data were processed

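Ribosomal RNA was depleted and strand-marking libraries were sequenced on an Illumina HiSeq. The authors deposited FPKM for 29599 transcripts in 9 libraries, without counts. The submitters' processing notes name cutadapt, HISAT2 2.0.5, StringTie, STAR 2.5.2b and the build hg19, although hg19 is a human build and the table holds mouse transcripts. Which of them made the FPKM could not be settled. Depth was unknown, and steps in low values did not return whole reads (26 to 30.5% near whole, where chance gives 20%), so that no count model was run.

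Of the transcripts, 29521 were matched by identifier to GENCODE M21 on GRCm38, and their FPKM were summed over 13787 genes. The 78 unmatched transcripts held 0.158% of the FPKM. Genes whose mean over the 9 libraries reached 0.5 FPKM entered limma 3.58.1 in R 4.3.3 as log2(FPKM + 1), with an intensity trend, all 9 libraries in the fit, no block, and Benjamini-Hochberg adjustment over all tested genes. In simulated data with normal noise and 12443 genes in the step, changes of 0.58, 1, 2 and 4 on the log2 scale were set. Each size was given to 50 genes, all above 5 FPKM on average. Of these, 26%, 74%, 96% and 100% were called, and 6 of 12243 unchanged genes were. The measured comparison tested genes from 0.5 FPKM and called 66.5% of them, which loosens the adjusted threshold. These rates do not carry over to it.

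Members and gene lists were chosen with earlier results of these data known. Named genes were those the study names for ciXEN cells, the 15 largest rises and falls without overlap at 5 FPKM or more, in each list the 6 largest called changes with up to 3 that go against the majority or did not pass, and the 10 called and 10 uncalled genes with the largest ratio between lines. Other genes are said to be chosen after their values were seen or are given to complete a family. Single values of some list members are not reported here, although list counts and medians include them. Alternatives varied the pseudocount, filter, scaling, trend, libraries and block. Promoter windows are those of RefSeq on GRCm38.p6.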

Additional observations from a re-analysis of the deposited data

Results flagged for a closer look

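At 3 libraries a group no library was tested for standing apart from its group. For 38 of the 206 named and tested genes, the value at passage 5 differed from that of the same lines at passage 30. The call was made in the limma fit at an adjusted p under 0.05, which 8.69% of all tested genes passed. The distance of these 38 genes from MEFs was thus not the same at both passages. Many named genes were chosen by their passage 5 values, which this difference uses again. A higher share among named genes is therefore favoured by the choice and is no result about them. Each line was sampled at both passages, and the fit compared group means without using this pairing. The MEF libraries are shared by both distances. The differences below are log2 fold changes of passage 30 minus passage 5, and no explanation was tested.

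Of the epithelial lists, 9 of 28 junction and keratin genes and 5 of 14 regulators were lower at passage 30 and none was higher, and the named ones differed for Cldn4 by −3.89, Ap1m2 by −3.12, Ovol2 by −1.87, Cdh1 by −1.84, Jup by −1.30 and Esrp2 by −1.17. Of 8 factors of the epithelial-mesenchymal transition 3 were higher, and so was 1 of 21 fibroblast and mesenchyme genes, with Vim at 1.62, Zeb1 at 1.07 and Snai2 at 0.90. Of 10 visceral endoderm genes 5 were higher and none lower, with Rbp4 at 2.67, Cubn at 2.14, Dab2 at 1.51 and Lrp2 at 0.40, and so were Onecut1 at 0.81 and the factors Gata6 at 0.81 and Sox7 at 0.70. Of the basement membrane genes, Col18a1 was at 1.25, Hspg2 at 0.74 and Col4a2 at −0.61. Among genes known from pluripotent cells, Lin28a was at 0.85 and Sox2 at −0.96, and the methyltransferase Dnmt3b was at −0.84.

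Metabolic genes moved in both directions, with Gldc at 1.95, Pfkp at 0.92, Eno1 at 0.66, Pfkl at 0.61, Gcsh at 0.56 and Slc16a1 at 0.55, and with Ldhb at −1.20, Gstk1 at −0.50 and Idh3b at −0.45. Of the cell cycle genes, Ccnd3 was at 1.28 and Cdkn2a at 0.64. The remaining differences were those of Cdh5 at 1.14, H2-D1 at 1.11, Kif7 at 0.69, Fgfr1 at 0.62 and Dkk1 at −0.81.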

How the results depend on the processing

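Across 17 alternatives the count of risen genes lay between 3826 and 5268 and that of fallen genes between 2433 and 3630, all within 1.5 times the counts as reported. Leaving out 1 library at a time gave 4643 to 4763 risen and 2913 to 3039 fallen genes. Setting equal medians, equal sums or equal quantiles changed the share of rises among calls from 61.2% to 54.8%, 58.2% and 57%. The list median of glutathione metabolism turned to −0.04 and that of the primary cilium to 0.00 under equal medians, and the other lists kept their sign in every alternative run, except that the single erythroid gene gave no value at a filter of 1 FPKM. Sizes were less stable. With a pseudocount of 0.1 the medians of many lists grew in size. They moved from 5.37 to 7.56 for primitive endoderm factors and from 5.21 to 7.49 for endoderm of the gastrula. Fibroblast and mesenchyme genes moved from −5.86 to −8.25, matrix genes from −5.72 to −7.42 and TGF-beta targets from −5.24 to −7.30. The median became 3.91 for hepatocyte genes, 2.89 for Wnt targets, 4.77 for pluripotency and 3.46 for trophoblast. It became 6.36 and 5.99 for epithelial junctions and regulators. Among lists that fell it became −0.88 for cyclic AMP targets, −1.85 for Hox genes, −5.33 for macrophage and −3.45 for neural genes. Leaving out 1 library moved small medians by over 1.5 times, to between −0.34 and −0.05 for retinoic acid genes, to −0.07 and −0.04 for direct targets of the agents without lines 2-1 and 3-3, to 0.06 and 0.23 for glutathione metabolism without lines 2-1 and 3-3, to −0.16 and −0.06 for cell cycle inhibitors without MEF replicates 1 and 2, to 0.21 and 0.07 for the primary cilium without lines 1-1 and 3-3, and to between 0.12 and 0.36 for mitochondrial fusion and fission. At a filter of 1 FPKM the median of serine and one-carbon metabolism was 0.09.

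Directions reversed only for genes without a call. When 1 library was left out, Cdkn2a ranged from −0.21 to 0.10, Phc1 from −0.09 to 1.28 and Nid2 from −0.46 to 0.05, the ends of Cdkn2a lying without MEF replicates 1 and 2, and Cdkn2a was at 0.01 without line 1-1. Nid2 was at 0.47 with MEF replicate 2 as the only MEF library. G6pdx was at −0.01, −0.08 and −0.03 under equal sums, medians and quantiles, and Hdac2 at −0.02 under equal medians. With MEF replicate 2 alone, 21 of the named genes lost their call, Sparc, Myc, Snai1, Dab2 and Ldha among them, in a fit with fewer samples. That lone library is assumed to vary like the other groups. Loxl2 passed under equal sums, medians or quantiles, without MEF replicate 3 or line 2-1 and with MEF replicate 2 alone, with adjusted p from limma of 0.031 to 0.050. Phc1 and Fos passed without line 2-1, Nid2 without MEF replicate 2, Kdm1a without line 1-1, and Hoxb7 and Marveld2 without line 3-3, with adjusted p from limma of 0.0015 to 0.024.

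Libraries of equal replicate number were not treated as paired. The correlations of their deviations from the group means were −0.014, −0.0618 and −0.0228, which cannot show whether a line was derived from the MEFs of the same number. With the replicate number as a block, 4991 genes were higher and 3192 lower. Of the named genes, Col4a1, Loxl2 and Marveld2 then passed and Srf did not.

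Depth is not known, so that no limit of detection can be given for a value of 0. The values come as FPKM with no counts, and the strand and shared-read settings behind them are unknown.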
